A study of Carassius gibelio with 26 samples.

Results

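The 100 genes described here stood out in the testes of 5 diploid gibel carp males, called set 14 after the number that ends their library names. The other 5 diploid males, whose names end in 108 (4 males) or 106 (1 male), form the contrasting set, called set 108/106; the labels do not say what these numbers mean. CPM values (the count of a gene over the total count of its library, times 1000000) were used for the choice. For each gene outside the mitochondrial genome, the lowest CPM of set 14 plus 0.5 was divided by the highest CPM of set 108/106 plus 0.5, and the 100 genes with the highest ratio of 62094 were taken. The members were thus chosen by the diploid values, and everything said about the diploid sets is a description with no test. The triploid males took no part in the choice.

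Gibel carp (Carassius gibelio) lives as sexual diploids and as polyploid females that reproduce by gynogenesis. In gynogenesis, sperm activates the egg but normally gives no genes to the embryo, so the offspring of 1 mother largely repeat her genome. Warmth early in life can turn genetic females of many fishes into males, and such males hold a genome that would otherwise have made ovaries. A testis holds germ cells from spermatogonia to sperm, beside supporting Sertoli cells and hormone-producing Leydig cells. In whole testis, fewer cells of a type and less RNA per cell cannot be told apart.

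Testes of 26 males aged 2 years were sequenced, 1 library per male. The 10 diploid (2n) males came from sexual crosses of diploid parents, with eggs kept at 22 °C. The 16 triploid (3n) males were sex-reversed offspring of gynogenesis, which used sperm of gibel carp, common carp (Cyprinus carpio) or bream (Abramis brama). The parental fish came from 1 river. The mother of group 1 (5 males, 28 or 31 °C by their library names) had offspring that became males in the heat but stayed female at 22 °C. For groups 2 (5 males, 31 °C by their names) and 3 (6 males, 22 °C) the mother had many reversed offspring at 22 °C too, and all of them reversed in the heat; whether both groups had the same mother is not stated. Group 1 thus differs from group 3 in both mother and temperature, which cannot be told apart. The males of a triploid group came from 1 female by the design text, so p-values measure the spread between males of 1 mother. Library totals ran from 15375923 to 29503544 counts. Reads were counted on the goldfish (Carassius auratus) annotation, whose gene IDs could not be paired with names here: 0 of 62131 IDs matched the gene table at hand. Members are therefore told apart by rank (1 has the highest ratio) and position, 4 of them also by ID, and no role is given to any. Testis and other cell type markers could not be looked up for the same reason.

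In set 14 the members ranged widely in level, from a mean of 0.789 to 370 CPM, with a median of 8.21 CPM. In set 108/106 the median mean was 1.20 CPM, and the median fold between the means was 6.42. The members took 0.192% ± 0.040 (SD, n = 5) of all counts in set 14 and 0.0312% ± 0.0009 (SD, n = 5) in set 108/106. Most of the list lay close to its edge. The ratio was at least 3 in 18 members and under 2 in 31, with a median of 2.24. The members ranked 99 and 100 had a ratio of 1.80, and the next 2 genes, just outside the list, had 1.78 and 1.77. Of the 42337 nuclear genes that passed the filter on low counts over the 26 males, 3.1% had all males of set 14 above all males of set 108/106; all 100 members passed that filter, as the rule itself requires a high set 14.

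**Figure D1:**
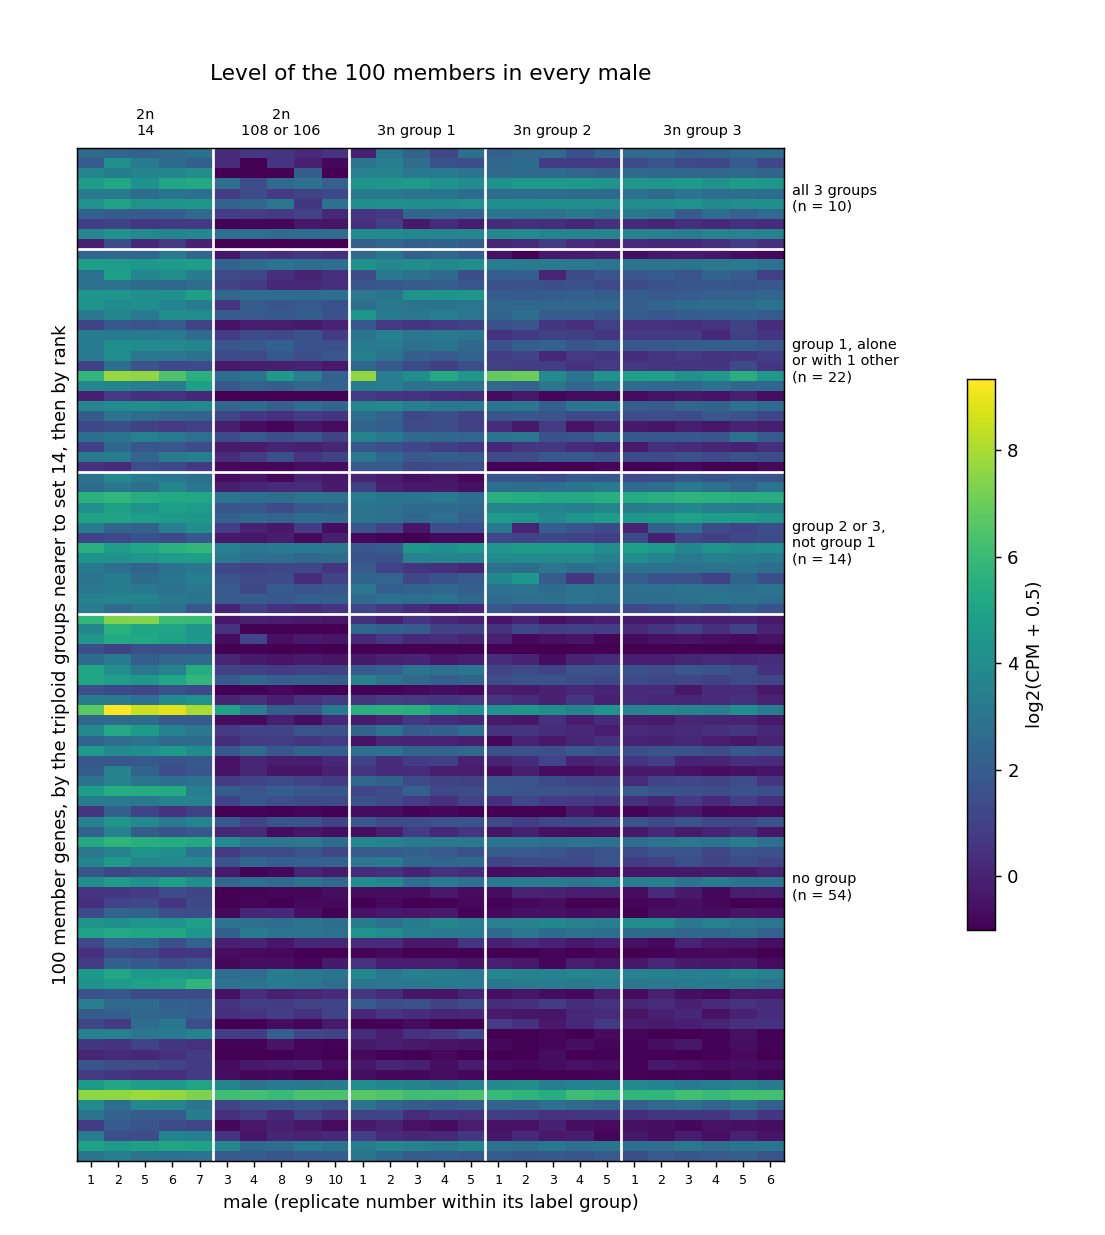
Level of each member (rows) in each of the 26 males (columns), as log2(CPM + 0.5) in colour, with rows grouped by which triploid groups lay nearer to set 14 on average. The largest block, 54 members at the bottom, is on average brighter in set 14 than in the other 4 column blocks.

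The member ranked 1 lies on scaffold QPKE01001629.1 (49098 to 53491, plus strand, 5 exons). Its CPM in set 14 was 55.8, 166, 169, 67.0 and 61.1 in replicates 1, 2, 5, 6 and 7. In the other 21 males it was far lower, with 0.441 CPM in the highest male of set 108/106 and 1.004 CPM in the highest triploid male, and the means were 0.333 in set 108/106, 0.681 in group 1, 0.338 in group 2 and 0.385 in group 3. Its ratio was 59.9, and that of the next member was 10.4. The member ranked 3 (scaffold QPKE01006610.1, 26633 to 28375, minus strand, 1 exon) had a similar shape, at 21.5 to 39.2 CPM in set 14 and at most 1.06 CPM in any triploid male, with 1.73 CPM in 1 diploid male of number 108.

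The member ranked 8 (scaffold QPKE01004260.1, 254532 to 255728, plus strand, 3 exons) had counts in set 14 only. Its CPM there was 2.27, 1.58, 2.35, 2.22 and 2.28, and the count was 0 in each of the other 21 males. A floor of 3 counts over the 16 triploid males together is 0.00792 CPM, so that its level was at least 269.9-fold lower there; over the 5 males of set 108/106 the floor is 0.0247 CPM, at least 86.6-fold lower. These floors cover counting error only.

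A further 2 members had a count of 0 in all 5 males of set 108/106, and in both the triploid males were not at 0. The member ranked 83 (scaffold QPKE01004742.1, 310070 to 311098, plus strand, 1 exon) had 3.83, 4.69, 3.71, 4.15 and 3.61 CPM in group 1, against 0.455 to 2.06 CPM in set 14. Every male of group 1 was thus above every diploid male. Its mean was 0.753 ± 0.275 CPM (SD) over the 5 males of group 2 and 0.811 ± 0.245 CPM over the 6 of group 3. Between group 1 and group 3 the log2 fold change was 1.85 ± 0.19 (SE; edgeR adjusted p = 3.29e-07). The member ranked 79 (scaffold QPKE01001016.1, 65110 to 100864, minus strand, 15 exons) was at 0.707 to 1.28 CPM in group 1, overlapping the 0.472 to 1.14 CPM of set 14, and at most 0.429 CPM in a male of group 2 or 3. It was higher in group 1 than in group 3 by 1.5 ± 0.28 on the log2 scale (SE; edgeR adjusted p = 0.000141), and this call was lost when the diploid males were put into the fit as 1 group (adjusted p = 0.118).

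Because the ratio uses the extreme males of each set, the choice was repeated without each diploid male in turn. Leaving out a male of set 14 kept 68 to 81 of the 100 members, leaving out a male of number 108 kept 84 to 92, and leaving out the male of number 106 kept 83. The male left out can then be placed on genes it did not choose. A male is called nearer to a set when its log2(CPM + 0.5) is closer to that set's mean. The 5 males of set 14 lay nearer to the rest of their set in 68 to 84 of 100 genes. The 4 males of number 108 lay nearer to set 14 in 6 to 8 genes, and the male of number 106 in 14. Each diploid male was thus placed with its own set in most genes chosen without it, while 8 to 32 members of the list changed. The same placement over all filtered genes was not made, so nothing particular to the list is read from it.

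**Figure D2:**
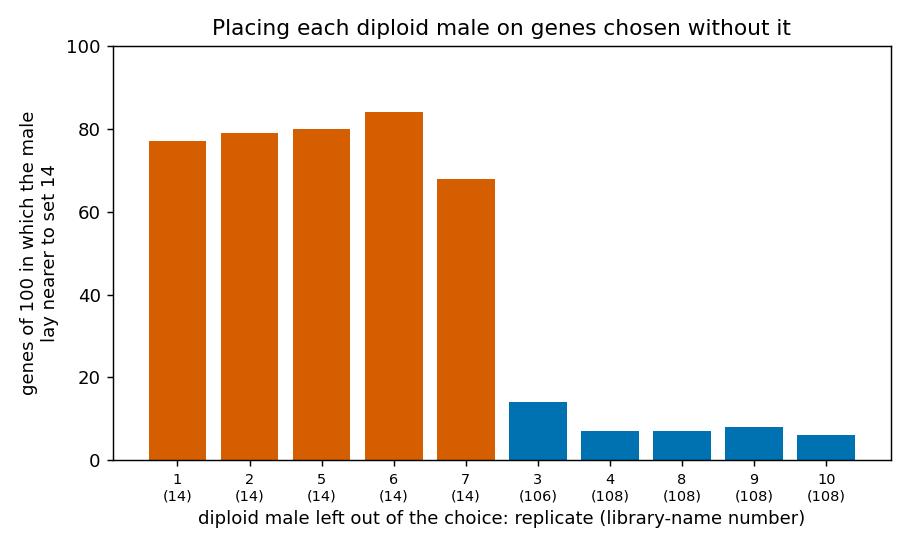
Number of genes of 100, chosen without the diploid male on the horizontal axis, in which that male lay nearer to set 14. Males of number 14 reach 68 to 84, males of number 108 reach 6 to 8, and the male of number 106 reaches 14.

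All 3 triploid groups lay nearer to set 108/106 than to set 14 in most members. By group means, group 1 was nearer to set 14 in 32 of 100 members, group 2 in 28 and group 3 in 21. Over all 42337 filtered nuclear genes the same shares were 40.8% for group 1, 53.7% for group 2 and 52.5% for group 3. These shares are above the members' in each case. The members were chosen on the diploid values that this measure uses, so nothing is read from that difference. With CPM scaled by the trimmed mean of M-values (TMM), which corrects for a few genes taking many reads, the counts were 25, 33 and 32 of 100, beside 41.7%, 49% and 48.8% of all filtered genes. That most members lay nearer to set 108/106 thus held under both scalings, and the order of the 3 groups did not. The rule with the sets exchanged gives 100 genes low in set 14, and these were nearer to set 14 in 37, 63 and 61 cases in groups 1, 2 and 3 (49, 54 and 51 with TMM-scaled CPM). By library-total CPM, groups 2 and 3 thus lay nearer to the set where the genes were low, in most genes of both lists. Group 1 lay nearer to set 108/106 in most genes of both.

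In 33 to 35 members, a triploid group lay wholly above set 108/106. Every male of group 1 was above every male of set 108/106 in 35 members (9.35% of the background), every male of group 2 in 35 (8.22%) and every male of group 3 in 33 (6.65%). In the other direction, every male of group 1 was below every male of set 14 in 69 members (4.15% of the background), every male of group 2 in 79 (19.1%) and every male of group 3 in 81 (16.7%). The rule fixed the edges of both sets, so nothing is read from these counts against the background. The whole of group 1, 2 or 3 lay in the gap between the sets in 9, 20 and 16 members, beside 0.0402%, 0.0756% and 0.0661% of filtered genes; the rule gives every member such a gap and few other genes have one.

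On a scale where 0 is the mean of set 108/106 and 100 the mean of set 14, in log2(CPM + 0.5), each male's median position over the members was taken. It ran from 22.3 to 36.6 in group 1 (median 25.2), from 10.5 to 21.6 in group 2 (median 19.1) and from 7.23 to 19.6 in group 3 (median 13.1). Group 1 lay above both other groups, and groups 2 and 3 overlapped. With TMM-scaled CPM, an alternative added after the data were seen, the ranges were 13.9 to 25.7, 20.6 to 30.9 and 20.5 to 26.3, so that group 1 no longer lay above the others. On both scales every triploid male was closer to 0 than to 100. The share of all counts was 0.0611% ± 0.0132 (SD, n = 5) in group 1, 0.0542% ± 0.0088 (SD, n = 5) in group 2 and 0.0493% ± 0.0027 (SD, n = 6) in group 3, with overlapping ranges. These shares lean on single members in some males. The member ranked 72 alone gave 4655 of the 19726 member counts of group 1 replicate 1. In group 2 it gave 2660 of 14476 in replicate 1 and 3161 of 16136 in replicate 2. Over the genes that are not members, the rank correlation of each male with the males of each diploid set was taken, as a median over that set. All 5 males of set 14 (0.947 to 0.963 with their own set, 0.931 to 0.940 with the other) and all 5 of set 108/106 (0.952 to 0.964 and 0.933 to 0.939) lay nearer to their own set. In group 1, 0 of 5 males lay nearer to set 14, with 0.873, 0.894, 0.936, 0.932 and 0.940 for set 14 and 0.905, 0.927, 0.945, 0.944 and 0.946 for set 108/106, so that replicates 1 and 2 were low with both. In group 2, 2 of 5 males lay nearer to set 14, and in group 3, 1 of 6, with correlations of 0.927 to 0.945 with either set in both groups. These correlations are across 42237 genes, which are not independent.

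**Figure D3:**
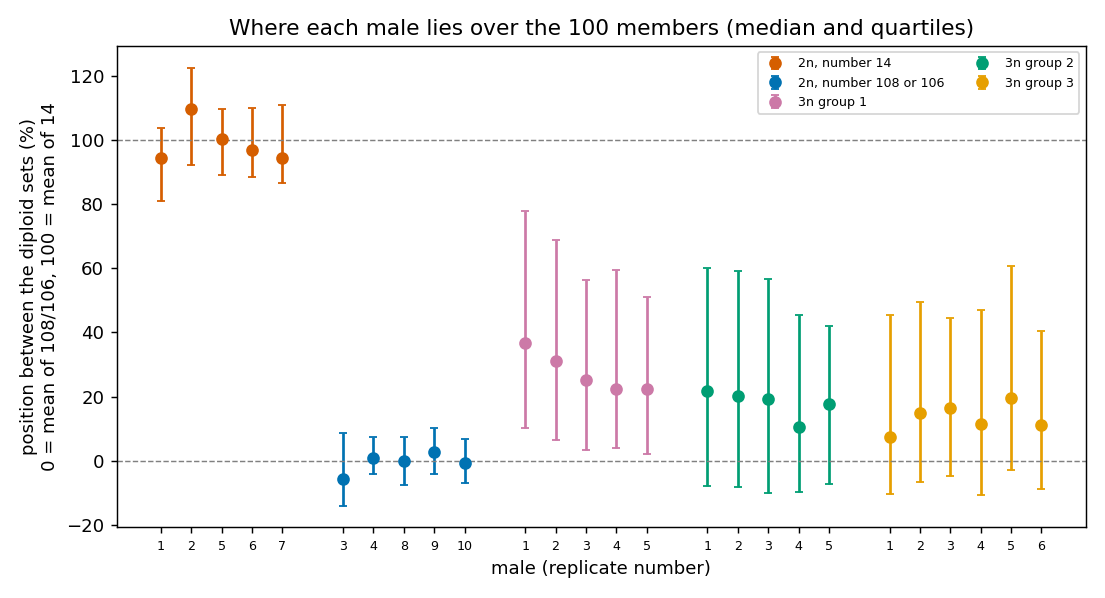
Median position of each male over the 100 members, with quartiles as bars, on a scale where 0 is the mean of set 108/106 and 100 the mean of set 14. Males of group 1 lie at 22.3 to 36.6, those of group 2 at 10.5 to 21.6 and those of group 3 at 7.23 to 19.6.

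The median hides members of opposite behaviour. No triploid group was nearer to set 14 in 54 members (21.0% of the background), and all 3 groups were in 10 (15.8%). Group 1 alone was nearer to set 14 in 17 members (21.8% of the background), and groups 2 and 3 without group 1 in 10 (33.3%). Groups 1 and 2 without 3 made up 4 members (2.38%), and groups 1 and 3 without 2 made up 1 (0.867%). Group 2 alone made up 4 (2.31%) and group 3 alone 0 (2.60%). The members were chosen on the diploid values, so nothing is read from these counts against the background.

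Of the 10 members nearer to set 14 in all 3 groups, the one ranked 36 (chromosome 19, 11487944 to 11511043, minus strand, 9 exons) overlapped set 14 in each group. Not all 10 did so, as rank 34 stood wholly between the sets in groups 2 and 3. It had 24.9, 36.3, 18.1, 33.9 and 37.3 CPM in set 14 and 6.56, 2.20, 5.47, 6.95 and 4.01 CPM in set 108/106. The triploid males lay at 15.1 to 24.1 CPM in group 1, 18.5 to 23.5 in group 2 and 19.1 to 24.4 in group 3, all above set 108/106. It was lower in group 1 than in group 2 by a log2 fold change of -0.56 ± 0.12 (SE; edgeR adjusted p = 0.000833), and this call was lost with the diploid males in the fit as 1 group (adjusted p = 0.388). The CPM ranges of the groups overlap; the fit multiplies the library sizes of group 1 replicates 1 and 2 by TMM factors of 1.54 and 1.45.

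The member ranked 49 (chromosome 41, 13733957 to 13740211, minus strand, 10 exons) held 16.3 to 18.1 CPM in group 1, 15.7 to 16.7 in group 2 and 14.6 to 19.0 in group 3, against 18.1 to 30.1 CPM in set 14 and 1.11 to 7.78 in set 108/106. By mean CPM group 1 was above group 2 (17.2 ± 0.648 and 16.3 ± 0.424, SD), while in the TMM-scaled fit it was below (-0.35 ± 0.10 on the log2 scale, edgeR adjusted p = 0.0086), so that the direction depends on the scaling. The fitted difference was not called under upper-quartile normalization (adjusted p = 0.124) or without group 1 replicates 1 and 2 (adjusted p = 0.123). Nor was it called with the diploid males in the fit as 1 group (edgeR adjusted p = 0.552) or as 2 groups (edgeR adjusted p = 0.234). The member ranked 42 (chromosome 36, 691506 to 692379, minus strand, 3 exons) had 5.81 to 9.19 CPM in group 1 and 5.70 to 8.87 CPM in set 14, so that the ranges overlapped. Its 3 triploid comparisons were not called.

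The members in which groups 2 and 3, but not group 1, were at the level of set 14 include some of the largest contrasts between triploid groups. ENSCARG00000029091, ranked 5 (chromosome 32, 20651324 to 20677935, plus strand, 11 exons), had 5.85, 8.25, 6.50, 12.3 and 7.74 CPM in set 14. It had 6.41, 5.98, 6.39, 7.32 and 8.86 CPM in group 2 and a lowest, median and highest of 4.67, 6.53 and 8.52 CPM in group 3. In group 1 it had 1.45, 0.422, 0.305, 0.307 and 0.196 CPM, and set 108/106 lay at 0.347 to 0.724 CPM. Groups 2 and 3 overlapped set 14 and no male of group 1 reached them. The log2 fold change of group 1 was -4.20 ± 0.30 against group 2 and -4.12 ± 0.29 against group 3 (SE; edgeR adjusted p = 6.46e-09 and 4.73e-09).

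ENSCARG00000047806, ranked 46 (scaffold QPKE01006073.1, 319249 to 352853, plus strand, 8 exons), repeated this at a lower level. Its CPM in group 1 was 0.085, 0.0422, 0, 0.115 and 0.118, under 4 of the 5 males of set 108/106 (0.0966 to 0.425 CPM). Group 2 had 1.82, 1.65, 1.87, 1.64 and 1.38 CPM, close to the 1.60 to 3.12 CPM of set 14, and group 3 had a lowest, median and highest of 0.426, 1.78 and 2.05 CPM. The 1 low male of group 3 is replicate 2. The log2 fold change of group 1 against group 3 was -4.78 ± 0.45 (SE; edgeR adjusted p = 1.02e-07).

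The members ranked 6 and 15 behaved alike. Both are annotated with a single exon of 3762 bp, on chromosome 4 (20061188 to 20064949, minus strand) and on chromosome 29 (18266416 to 18270177, minus strand). Rank 6 had 47.4, 56.6, 43.0, 38.4 and 34.8 CPM in set 14, 46.5, 41.7, 37.9, 37 and 44.1 CPM in group 2, and a lowest, median and highest of 40.2, 44.0 and 52.5 CPM in group 3. It had 8.89, 7.52, 7.33, 8.52 and 6.17 CPM in group 1 and 6.00 to 7.39 CPM in set 108/106. Group 1 overlapped set 108/106, and groups 2 and 3 overlapped set 14.

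Rank 15 had means of 26.7 ± 4.55, 5.17 ± 0.785, 5.88 ± 1.31, 21.5 ± 4.70 and 25.2 ± 3.76 CPM (SD) in set 14, set 108/106 and groups 1, 2 and 3. Group 1 was lower than group 3 by a log2 fold change of -3.01 ± 0.11 for rank 6 and -2.57 ± 0.15 for rank 15 (SE; edgeR adjusted p = 1.02e-12 and 2.50e-10). The ratio of their CPM ran from 1.15 to 2.72 over the 26 males, with a median of 1.67. The table holds 3 nuclear genes with a single exon of that length, and the third did not pass the filter. Whether these are near-identical copies was not tested. Such copies may lose reads that match both, as no option for multi-mapping reads was set, and the values of both are uncertain to that degree.

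The members ranked 4 and 64 were also nearer to set 14 in groups 2 and 3 but not in group 1, and only rank 64 reached its level. Rank 4 (chromosome 17, 12712705 to 12735965, plus strand, 18 exons) averaged 2.86 ± 0.320 CPM (SD) over group 2 and 2.69 ± 0.538 CPM over group 3, below the 6.50 to 13.8 CPM of set 14 and above every other male. It had at most 0.553 CPM in group 1. Rank 64 (scaffold QPKE01000649.1, 317505 to 363101, minus strand, 24 exons) had 5.86 to 7.94 CPM in group 2 and 6.15 to 7.39 CPM in group 3, within the 4.35 to 9.20 CPM of set 14. In group 1 it had 3.19, 1.60, 0.960, 0.844 and 0.589 CPM, so that replicate 1 stood above the 0.965 to 1.88 CPM of set 108/106 and the last 3 below it. Against group 3, group 1 was lower by log2 fold changes of -3.71 ± 0.22 and -2.75 ± 0.23 (SE; edgeR adjusted p = 4.75e-10 and 2.33e-08).

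The opposite pattern, group 1 with set 14 and groups 2 and 3 away from it, is illustrated here by 3 members. Group 1 alone was nearer to set 14 in 17 members. ENSCARG00000002633, ranked 17 (chromosome 9, 21831162 to 21840683, minus strand, 13 exons), had 4.63, 5.09, 4.95, 8.78 and 5.01 CPM in set 14 and 5.44, 7.69, 4.15, 5.03 and 3.81 CPM in group 1. In group 2 it had 0.217, 0, 0.323, 0.344 and 0.449 CPM, and in group 3 at most 0.339 CPM. Those levels are under 4 of the 5 males of set 108/106, which spanned 0.262 to 1.11 CPM. The log2 fold change of group 1 was 3.82 ± 0.36 against group 2 and 4.08 ± 0.34 against group 3 (SE; edgeR adjusted p = 1.55e-07 and 2.57e-08).

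ENSCARG00000009689, ranked 57 (chromosome 41, 10574845 to 10578761, minus strand, 2 exons), had 9.49, 8.73, 8.89, 9.23 and 5.66 CPM in set 14 and 7.27, 11.2, 7.81, 8.29 and 7.70 CPM in group 1. Group 2 had 0.910, 1.20, 1.48, 1.42 and 1.08 CPM and group 3 a lowest, median and highest of 0.632, 1.17 and 1.43 CPM, overlapping the lower end of set 108/106 (1.18 to 2.41 CPM). Group 1 was higher than group 3 by 2.48 ± 0.18 on the log2 scale (SE; edgeR adjusted p = 3.57e-09).

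The last member of the list, ranked 100 (chromosome 46, 16285266 to 16288586, plus strand, 6 exons), had the largest of these contrasts among the members tested. It had 3.19, 3.34, 1.83, 2.15 and 2.20 CPM in group 1, overlapping and partly above the 0.658 to 2.20 CPM of set 14. No male of group 2 or 3 passed 0.0848 CPM. The log2 fold change of group 1 against group 3 was 5.29 ± 0.36 (SE; edgeR adjusted p = 1.79e-09), a fitted value that rests on a few counts in groups 2 and 3.

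**Figure D4:**
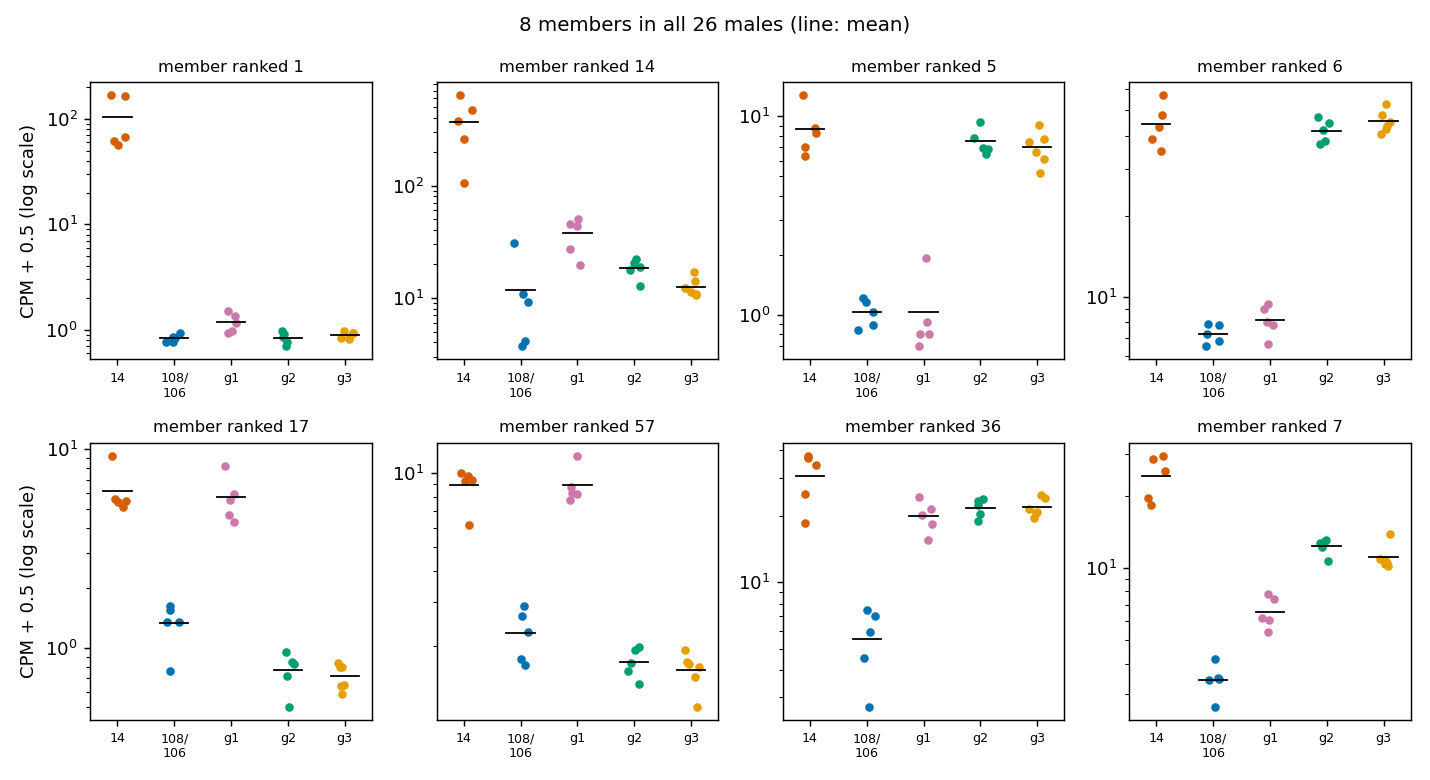
CPM plus 0.5 on a log axis for 8 members in set 14, set 108/106 and triploid groups 1 to 3 (g1, g2, g3), with 1 point per male and a line at the mean. Members ranked 5 and 6 show groups 2 and 3 at the level of set 14 and group 1 at that of set 108/106. Members ranked 17 and 57 show group 1 at the level of set 14, with the means of groups 2 and 3 below that of set 108/106.

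Rank 7 (scaffold QPKE01002527.1, 32926 to 35917, minus strand, 8 exons) stood between the sets in all 3 groups. It had 4.91 to 7.27 CPM in group 1, 10.2 to 12.6 in group 2 and 9.69 to 13.4 in group 3, all in the gap between the 2.13 to 3.67 CPM of set 108/106 and the 17.8 to 28.9 CPM of set 14. It was lower in group 1 than in group 3 by a log2 fold change of -1.29 ± 0.10 (SE; edgeR adjusted p = 6.26e-09); this call was lost with the diploid males in the fit as 1 group (adjusted p = 0.0546). Rank 34 (scaffold QPKE01004289.1, 24616 to 27198, minus strand, 4 exons) was at 7.58 to 11.8 CPM in group 1, overlapping the 9.96 to 16.5 CPM of set 14. Groups 2 and 3 stood between the sets at 4.15 to 5.68 CPM, while 4 of the 5 males of set 108/106 had 0 counts and the remaining one, replicate 9, had 3.67 CPM.

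A few members split a triploid group. Rank 33 (scaffold QPKE01006392.1, 39505 to 41879, plus strand, 4 exons) had 8.08 and 7.64 CPM in group 1 replicates 1 and 2 and 20.1, 19.8 and 21.6 CPM in replicates 3, 4 and 5, the last 3 within the 16.8 to 28.7 CPM of set 14. Groups 2 and 3 lay at 3.24 to 4.66 CPM, and group 1 was higher than group 3 by 1.62 ± 0.31 on the log2 scale (SE; edgeR adjusted p = 0.000292). Rank 65 (chromosome 37, 68923 to 75745, plus strand, 4 exons) split the same males, at 1.02 and 1.18 against 4.71, 4.99 and 4.67 CPM. Rank 65 also had all of group 2, at 6.24 to 8.18 CPM, above the 3.55 to 5.46 CPM of set 14. Its call between group 1 and group 3 (-1.26 ± 0.44 on the log2 scale, edgeR adjusted p = 0.0185) was lost without group 3 replicate 1 (-1.03, adjusted p = 0.0612). It was also lost with group 1 limited to replicates 3 to 5 (-0.62, adjusted p = 0.0571) and with group 3 limited to the 4 males of number 11 (-0.84, adjusted p = 0.143).

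Single males also stood out. Rank 72 (chromosome 27, 21855540 to 21860846, plus strand, 7 exons) reached 198 CPM in group 1 replicate 1 and 115 and 127 CPM in group 2 replicates 1 and 2, within the 47 to 214 CPM of set 14, while the other 13 triploid males had 7.49 to 43.6 CPM. The same 2 males of group 2 were highest for rank 77 (chromosome 32, 3844847 to 3847185, plus strand, 3 exons), at 13.7 and 22.0 CPM against 1.08 to 3.66 CPM in the rest of the group. The call of rank 77 between groups 1 and 2 (-1.88 ± 0.58, edgeR adjusted p = 0.0104) was -1.21 and lost without group 2 replicate 2 (adjusted p = 0.0548). It was also lost with group 1 limited to replicates 3 to 5 (-2.05, edgeR adjusted p = 0.0538) and under limma-voom with sample weights (-1.38, limma-voom adjusted p = 0.0847).

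In some members the triploid males lay below both diploid sets, in all males of group 1 in 1 member (1.24% of filtered genes), of group 2 in 7 (10.9%) and of group 3 in 10 (8.36%). These counts are near the background. Rank 73 (scaffold QPKE01001530.1, 10537 to 21296, minus strand, 15 exons) had 7.84 to 11.9 CPM in set 14 and 1.29 to 3.73 CPM in set 108/106, and at most 0.112 CPM in group 2 and 0.191 CPM in group 3. Group 1 was at 0.422 to 1.85 CPM. It was not tested, as its counts in the triploid males were too low. Rank 86 (chromosome 21, 24381011 to 24383709, minus strand, 4 exons) had the highest mean CPM of the members in all 3 triploid groups, 82.4 ± 12.5, 57.5 ± 10.5 and 65.6 ± 9.02 (SD), beside 159 to 225 CPM in set 14 and 65 to 84.6 CPM in set 108/106. It overlaps 2 annotated genes on the same strand, so its count may hold or lack reads of those.

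The triploid groups were compared on all genes with edgeR's quasi-likelihood test in 1 model of the 16 triploid males, where a gene is called at a Benjamini-Hochberg adjusted p under 0.05 over 40265 genes. Of the 100 members, 85 were tested, and the 15 left out reached at most 1.85 CPM in any triploid male. Against group 2, group 1 was higher in 26 members and lower in 24, beside 34.5% and 27.4% of all genes tested. Against group 3, group 1 was higher in 28 and lower in 21, beside 37.2% and 30.9%. The members' shares are close to the background, and the counts say nothing particular about the list. Upper-quartile scaling gave 32 of 85 members higher and 18 lower against group 2, beside 18068 and 8004 of 40265 genes. It moved the all-gene median of the log2 fold change from 0.09 to 0.30. The median over the members was 0.01 against group 2 and 0.08 against group 3, beside 0.09 and 0.07 over all genes.

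Between groups 2 and 3, edgeR called 0 members higher and 0 lower, and 0% of all genes in either direction (0 and 0 of 40265). At an unadjusted p under 0.05 there were 5 members and 2991 genes (7.43%). DESeq2 called 0 members and 5 genes, and limma-voom 0 members and 0 genes. The comparisons of group 1 share the males of group 1.

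The members higher in group 1 were more often those in which group 1 stood with set 14. Of the 28 called higher against group 3, group 1 was nearer to set 14 in 16 and group 3 in 2, and of the 21 called lower, group 1 was nearer in 3 and group 3 in 13. The group with the higher level is the one nearer to a set chosen for being high, so these counts follow from the scale and are given as a description.

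**Figure D5:**
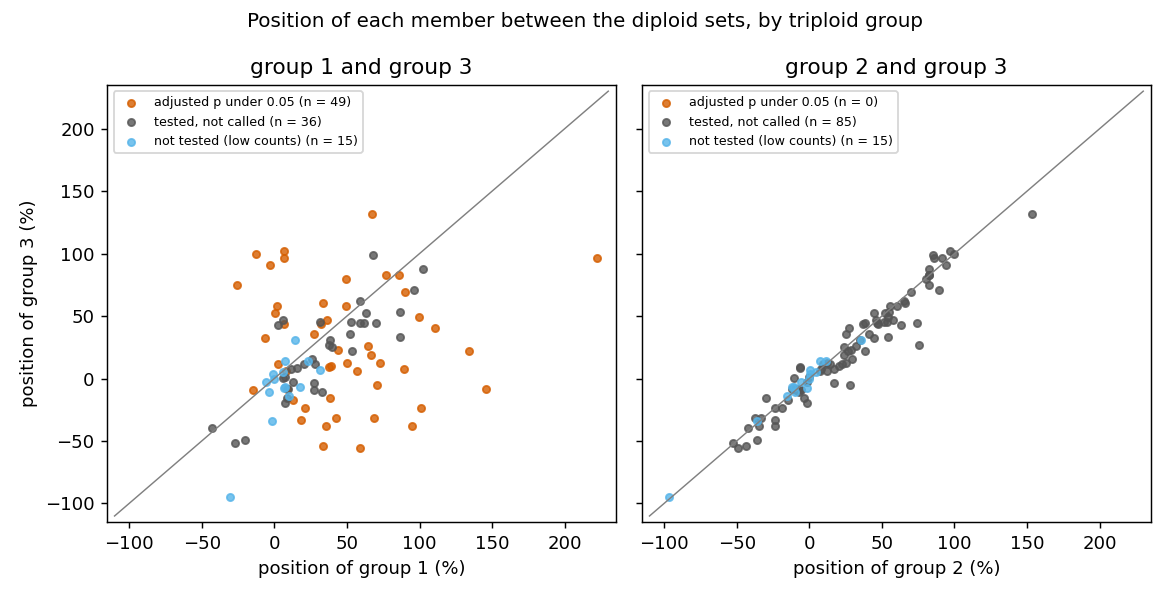
Position of each member between the diploid sets (0, mean of set 108/106; 100, mean of set 14) in group 1 or group 2 against group 3, with 1 point per member and the line of equality. Points for groups 2 and 3 lie along the line and 0 were called. Between groups 1 and 3, 49 of 85 tested members were called, beside 27453 of all 40265 genes tested.

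Members sit on 60 sequences: 68 on numbered chromosomes, 2 on linkage-group sequences and 30 on unplaced scaffolds, which hold 21.1% of the filtered genes. A single exon was annotated for 7 members, beside 3.94% of filtered genes, and the median number of exons was 6, beside 9. The median exon length was 2085.5 bp, beside 2123 bp.

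The members ranked 14 and 2 are neighbours on chromosome 23 (5939243 to 5946277 and 5946694 to 5964830), both on the minus strand and 416 bp apart. Rank 14, with 1 exon of 7035 bp, had the highest mean of all members in set 14, at 104, 640, 373, 473 and 259 CPM. Rank 2, with 5 exons, had 13.7, 48.0, 33.4, 32.3 and 21.7 CPM. Replicate 1 was lowest and replicate 2 highest in both. In set 108/106, rank 2 had 0.874 CPM in the male of number 106 and 0 in the 4 males of number 108, and rank 14 had 30.3 CPM in the male of number 106 and 3.19 to 10.2 CPM in the others.

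In group 1 rank 14 had 45.3, 49.5, 43.5, 26.9 and 19.2 CPM, in group 2 12.1 to 21.8 and in group 3 10.0 to 16.4, and rank 2 had 1.5 to 4.81, 0.910 to 1.85 and 0.483 to 1.53 CPM. Group 1 was higher than group 3 by 1.12 ± 0.18 for rank 14 and 1.12 ± 0.28 for rank 2 on the log2 scale (SE, edgeR adjusted p = 5.17e-05 and 0.00212). Both calls were lost with the diploid males in the fit as 1 group (edgeR adjusted p = 0.308 and 0.441). The call of rank 2 was also lost with the 2 diploid sets as separate groups (edgeR adjusted p = 0.0555). The CPM of rank 14 was 7.59 to 14.7 times that of rank 2 in set 14 and 7.61 to 20.8 times in the triploid males. Whether both are parts of 1 transcript was not tested.

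Runs of 3 members within steps of at most 1 Mb occurred on chromosomes 6, 17 and 29. The 3 members on chromosome 6, ranked 58, 37 and 29, fall in 0.107 Mb (23758682 to 23865782) that holds 5 filtered genes. Rank 37 had 38 to 54.1 CPM in set 14, 5.71 to 15.2 in set 108/106 and 6.19 to 13.5 CPM in the triploid males, and rank 29 had 8.39 to 11.6, 1.66 to 2.98 and 0.554 to 2.51 CPM. Neither was called between triploid groups, though each passed in 1 comparison under upper-quartile scaling (adjusted p = 0.043 for rank 37 against group 2 and 0.0479 for rank 29 against group 3). Rank 58, which overlaps 1 gene on the same strand, was called, with group 1 at 4.79 to 9.27 CPM and groups 2 and 3 at 2.56 to 4.26 CPM (log2 fold change 0.68 ± 0.14 against group 3, edgeR adjusted p = 0.000353; 0.203 with the diploid males in the fit as 1 group).

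On chromosome 29, the members ranked 22, 63 and 69 lie within 1.61 Mb (555300 to 2167070) among 46 filtered genes. Rank 22 had 4.48 to 7.05 CPM in set 14, 0.787 to 1.33 in set 108/106 and 0.0867 to 0.822 CPM in the triploid males. Rank 69 had 3.68 to 4.80, 0.830 to 1.58 and 0.211 to 0.971 CPM. The triploid means of these 2 lay below both diploid sets in all 3 groups, and no triploid comparison of either was called. Rank 63, at 2.05 to 2.90 CPM in set 14, 0.219 to 0.746 in set 108/106 and 0.0843 to 0.978 in the triploid males, was not tested.

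Chromosome 17 carries 8 members of 683 filtered genes (1.17%), the highest share of the numbered chromosomes with members, where the whole list is 100 of 42337 filtered genes. Of its 8 members, 7 lie between 22470235 and 27578077, a stretch of 5.11 Mb that holds 155 filtered genes, or 22.7% of the chromosome's. The stretch was drawn from its first to its last member, and the number of runs expected by chance was not taken. Nothing is therefore read from the grouping. The other 148 genes of the stretch were high in set 14 by a ratio over 1 in 6 cases (4.05%). The share was 3.10% of all filtered genes, which include the members, so the 2 shares are not fully alike. The run of 3 members there, ranked 39, 30 and 98, held mixed patterns. Rank 30 was between the sets in the triploid males at 1.94 to 3.92 CPM, rank 98 was at 2.36 to 3.82 CPM in groups 2 and 3, around the 2.89 to 3.52 CPM of set 108/106, and at 3.30 to 7.40 CPM in group 1, where replicate 1 lay within the 6.79 to 10.4 CPM of set 14, and rank 39 varied from 0.262 to 8.41 CPM among the 16 males. None of the 3 was called between triploid groups.

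Within set 14, males differed for many members. The coefficient of variation had a median of 27.9% and ran from 6.99% to 77.3%, and the highest male was over the lowest by a median factor of 1.96 and at most 6.66. It was at least 3 in 22 members. Replicates 2 and 5 were the highest 2 males in 28 members, beside 30.9% of filtered genes.

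Within group 1, replicates 1 and 2 were both above replicates 3 to 5 in 44 members, beside 60.5% of the background, and both below in 10, beside 13% of it. Replicates 1 and 2 are the 2 with the high TMM factors, whose part in the members' levels was not tested. The library names of group 1 carry number 4 (replicates 1 and 5), 6 (replicate 2) or 5 (replicates 3 and 4), and 31 °C for replicates 1 to 3 and 28 °C for 4 and 5. Replicates 3 to 5 alone were nearer to set 14 in 28 members, replicates 1 and 2 in 41 and both subsets in 24. The shares of these subsets over all filtered genes were not taken, so nothing is read from these counts. In group 3, the 2 males of number 12 were above the 4 of number 11 in 9 members, beside 8.62% of the background, and below in 9, beside 25% of it.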

How the data were processed

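Poly(A)-enriched, strand-specific libraries of testis RNA (integrity number over 7) were sequenced as 150 bp pairs, per the labels' protocols. The deposited values are raw read counts per gene, made with featureCounts 2.0.6 (reverse-stranded setting 2, fragments up to 25000 bp, minimum mapping quality 0) on goldfish annotation ASM336829v1, per the file headers; no option for multi-mapping reads was set, so near-identical copies may lose reads. The submitters' processing notes also name STAR 2.7.3a, cutadapt 4.3 and Picard 2.25.6. How molecular identifiers were handled was not given in the sources used here. Of the table's columns, 0 were without a sample.

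From these counts CPM was computed per library total (the values printed), and edgeR 4.0.16 (limma 3.58.1, R 4.3.3) was run on the 16 triploid males in 1 model of 3 groups, with TMM scaling, its filter on low counts (minimum count 10), robust quasi-likelihood tests and Benjamini-Hochberg adjustment over 40265 genes. Standard errors come from the F statistic. Fold changes are TMM-scaled and may differ from the CPM where scaling factors differ. DESeq2 1.42.0 and limma-voom were alternatives. The diploid males were left out because the rule makes members differ within them.

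The members, lists and comparisons were chosen with earlier results of these data known. Named by rule were the 2 highest ratios, the 2 highest and 2 lowest log2 fold changes called in group 1 against group 3 with a mean of at least 1 CPM over the triploid males, the highest mean in each group and in set 14, members at 0 in set 108/106, and runs of 3 members; the other members described were chosen after their values were seen. At most 4 IDs are printed, as 0 of 62131 matched the gene table at hand (98729 genes). Replicate numbers did not pair males: same-numbered males deviated together (correlation over 0.1) in 2 of 15 pairs. No 2 libraries of the same label group agreed within sampling noise (lowest chi-square per gene 4.23). Pairs from different groups were not checked.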

Additional observations from a re-analysis of the deposited data

Results flagged for a closer look

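Single males far from the rest of their group were found in 17 of 177 groups of values examined, by Dixon's test at the 95% level. Chance flags about 1 in 20 where the values were not chosen beforehand. Many of the members examined were chosen after their values were seen, and the rule used the extremes of both diploid sets. The 17 are therefore not read against that rate. The males in question are named by group and replicate, and no explanation was tested. In set 14, rank 17 was highest in replicate 6 at 8.78 CPM, rank 98 highest in replicate 2 at 10.4 CPM, rank 8 lowest in replicate 2 at 1.58 CPM and rank 57 lowest in replicate 7 at 5.66 CPM.

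In set 108/106, rank 3 was highest in replicate 4 at 1.73 CPM, rank 34 highest in replicate 9 at 3.67 CPM and rank 73 highest in replicate 8 at 3.73 CPM. Lowest there were rank 17 in replicate 3 at 0.262 CPM, rank 33 in replicate 3 at 4.94 CPM and rank 65 in replicate 10 at 0.618 CPM. Replicate 3 is the male of number 106.

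In group 1, rank 5 was highest in replicate 1 at 1.45 CPM and rank 39 lowest in replicate 3 at 0.262 CPM. The members' share of all counts was highest in replicate 1 of that group, at 0.0839%, where rank 72 gave 4655 of 19726 member counts. In group 2, rank 30 was lowest in replicate 5 at 1.94 CPM. In group 3, rank 7 was highest in replicate 3 at 13.4 CPM, rank 83 highest in replicate 5 at 1.29 CPM and rank 46 lowest in replicate 2 at 0.426 CPM.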

How the results depend on the processing

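Of 85 members tested, 50 were called between groups 1 and 2 and 49 between groups 1 and 3, beside 24939 and 27453 of 40265 genes. When all 26 males were fitted in 4 groups, 22 and 23 of 100 members tested were called, beside 19759 and 23425 of 42352 genes. By construction the diploid males' own division then enters the pooled spread. With the 2 diploid sets as separate groups, 47 and 44 of 100 were called, beside 21823 and 25311 of 42352 genes. Leaving out 1 triploid male in turn gave 47 to 51 and 46 to 52 members, beside 22806 to 25729 and 25685 to 27970 genes. Between groups 2 and 3 the count of members was 0 under every alternative run. The fit with a replicate block called 46, 48 and 0 of 85 members, beside 22843, 24603 and 0 of 40265 genes. With TMM-scaled CPM, group 3 was nearer to set 14 in 32 members, against 21; the cause was not tested. The other alternatives tried on the counts of members called, nearer to set 14, above set 108/106 or below set 14 kept each within 1.5 times its main value. Calls were followed through the alternatives in 36 tested members, among them those ranked 9, 18 and 74, which are not described above. Of these 36, 23 were called between groups 1 and 2. Of the 23, 11 lost the call under some alternative (9 with 4 groups, 8 under another). Between groups 1 and 3 these numbers were 22, 11, 10 and 4. None of the called fold changes changed direction under the fits run. Library-total CPM was not among those fits. By mean CPM the direction differed for some called members, among them those ranked 49 (described above) and 74 between groups 1 and 2. For rank 49 it also differed between groups 1 and 3 (means of 17.2 and 16.5 CPM, fitted log2 fold change -0.39). The 15 members that did not pass the filter on low counts over the triploid males have no test in the main fit.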
